A study of Mus musculus with 4 samples.

Results

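The genes described here encode the MAP2K kinases (Map2k1, Map2k2, Map2k3, Map2k4, Map2k5, Map2k6 and Map2k7) and the p38 MAP kinases Mapk11, Mapk12 and Mapk14. They are 10 of the 55487 gene identifiers in the deposited tables, and each symbol matched 1 identifier. The members were chosen by gene symbol with earlier results of these data in view: their levels in the 4 libraries, and the difference between morpholinos within each mouse in counts, TPM and the ratio of both. Their differences between morpholinos and between mice are therefore given as a description, with no test.

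MAP kinase cascades are relays of protein kinases. A MAP3K phosphorylates a MAP2K in its activation loop, and the MAP2K then phosphorylates both a threonine and a tyrosine of its MAP kinase. Map2k1 and Map2k2 act on the ERK kinases, Map2k5 on ERK5, Map2k3 and Map2k6 on p38, Map2k7 on the JNK kinases, and Map2k4 mainly on JNK and also on p38. In muscle stem cells, known as satellite cells, p38 signalling is known for its part in leaving quiescence, in the induction of Myod1 and later in differentiation.

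RNA came from satellite cells of Tg:Pax7-nGFP mice, which carry a nuclear green fluorescent protein driven by the regulatory sequence of Pax7; this transgene was common to all libraries, and no source used here gives the age of the animals. Minced skeletal muscle was exposed during the initial digestion to a vivo-morpholino, an antisense oligomer that enters cells without transfection. The Numb exon 6 morpholino was designed against exon 6 of Numb, so that transcripts skip it, and the other morpholino was a control. Muscle of 2 mice was used, with 1 library for either morpholino from each animal, which makes 2 libraries a group.

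The estimated counts summed to between 230431665 and 355411827 per library. They were derived from coverage, and low values piled up at 4 counts, so a total is not a number of sequenced fragments. Satellite cell markers summed to between 10305 and 12074 TPM, led by the syndecan Sdc4 (6499 to 7673 TPM) and by the myogenic factor Myod1 (1247 to 1543 TPM). Pax7, which defines satellite cells, stood at 37.0 to 59.7 TPM. None of the 12 satellite cell markers was at 0 in any library. Sums over the other marker lists were 46.9 to 152 TPM for leukocytes, 137 to 212 for endothelium, 1658 to 1898 for fibro-adipogenic progenitors, 196 to 269 for smooth muscle and pericytes, 156 to 182 for myofibres, 84.3 to 162 for glia and 539 to 1736 for erythroid cells. Numb, which encodes an inhibitor of Notch signalling, stood at 27.2 and 39.7 TPM with the control and the Numb exon 6 morpholino in mouse 1, and at 37.0 and 40.2 TPM in mouse 2. Values per gene do not show whether exon 6 was skipped. In RNA of whole samples, fewer cells of a type and less RNA per cell cannot be told apart.

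The sites at which these kinases act on each other can be read in the coding sequence. The stretches below run from the Asp-Phe-Gly codons that open the activation loop, and are shown because they hold the codons by which MAP2Ks are switched on and by which they switch on p38. Each is from a GENCODE vM21 transcript on GRCm38, 54 bases long, 5′ to 3′. For the p38 kinases, capitals mark the Thr-Gly-Tyr codons that MAP2Ks phosphorylate, found in frame as ACN and GGN before TAT or TAC.
Mapk14: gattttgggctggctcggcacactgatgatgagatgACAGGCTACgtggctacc
Mapk12: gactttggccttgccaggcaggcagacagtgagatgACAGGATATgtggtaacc
Mapk11: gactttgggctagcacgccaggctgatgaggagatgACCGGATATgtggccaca
The capitals are codons 180 to 182 of Mapk14 (chr17:28728363-28728416, plus strand), 183 to 185 of Mapk12 (chr15:89134667-89134720, minus strand) and 180 to 182 of Mapk11 (chr15:89145857-89145910, minus strand). Mapk14 and Mapk11 differed at 12 of the 54 bases, Mapk11 and Mapk12 at 14, and Mapk12 and Mapk14 at 15.

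For the MAP2Ks, capitals mark the codons from the phosphorylated serine to the phosphorylated threonine of the loop. They are shown for the MAP2Ks that act on p38 or JNK.
Map2k3: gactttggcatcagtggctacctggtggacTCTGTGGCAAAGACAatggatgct
Map2k6: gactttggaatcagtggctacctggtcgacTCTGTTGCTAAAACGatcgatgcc
Map2k4: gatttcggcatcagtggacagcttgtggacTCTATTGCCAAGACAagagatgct
Map2k7: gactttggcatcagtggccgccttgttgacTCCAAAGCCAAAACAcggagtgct
The stretches lie in coding exons at chr11:60946697-60946750 (plus strand), chr11:110496392-110496445 (plus strand), chr11:65707005-65707058 (minus strand) and chr8:4244532-4244585 (plus strand), in the order shown. Map2k3 and Map2k6, the p38 activators, differed at 8 of 54 bases here, and Map2k4 and Map2k7 at 14.

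On TPM, a scale corrected for transcript length, the MAP2K genes far exceeded the p38 genes. The 7 MAP2K genes summed to between 968 and 1109 TPM, and the 3 p38 genes to between 10.5 and 22.4 TPM. The p38 activators Map2k3 and Map2k6 alone summed to between 545 and 661 TPM. Map2k3 alone made up 56.1% to 59.6% of the MAP2K sum. It stood at 543 and 660 TPM with the control and the Numb exon 6 morpholino in mouse 1, and at 644 and 623 TPM in mouse 2. Its closest relative Map2k6, which also acts on p38, stood at 1.26, 1.62, 0.788 and 2.17 TPM in the same order. Map2k3 was thus the more abundant p38 activator in each of the 4 libraries.

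The MAP2Ks of the ERK cascade followed. Map2k1 had a mean of 229.9 TPM ± 16.5 (SD over 4 libraries) and Map2k2 of 157 ± 5.00, and their ranges did not overlap. Map2k4, which acts on JNK and p38, had a mean of 41.1 TPM ± 1.48. These 4 genes each stood apart from their neighbours in the order. Below them the ranges of Mapk14 (mean 11.9 TPM ± 5.41), Map2k5 (10.3 ± 1.47), Map2k7 (7.28 ± 3.58) and Mapk12 (3.53 ± 1.27) overlapped from each to the next, so that their order was not set beyond the spread of the libraries. Map2k6 (1.46 ± 0.586) and Mapk11 (0.617 ± 0.157) were lowest, with 0.788 TPM in the lowest library of Map2k6 and 0.780 in the highest of Mapk11.

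**Figure D1:**
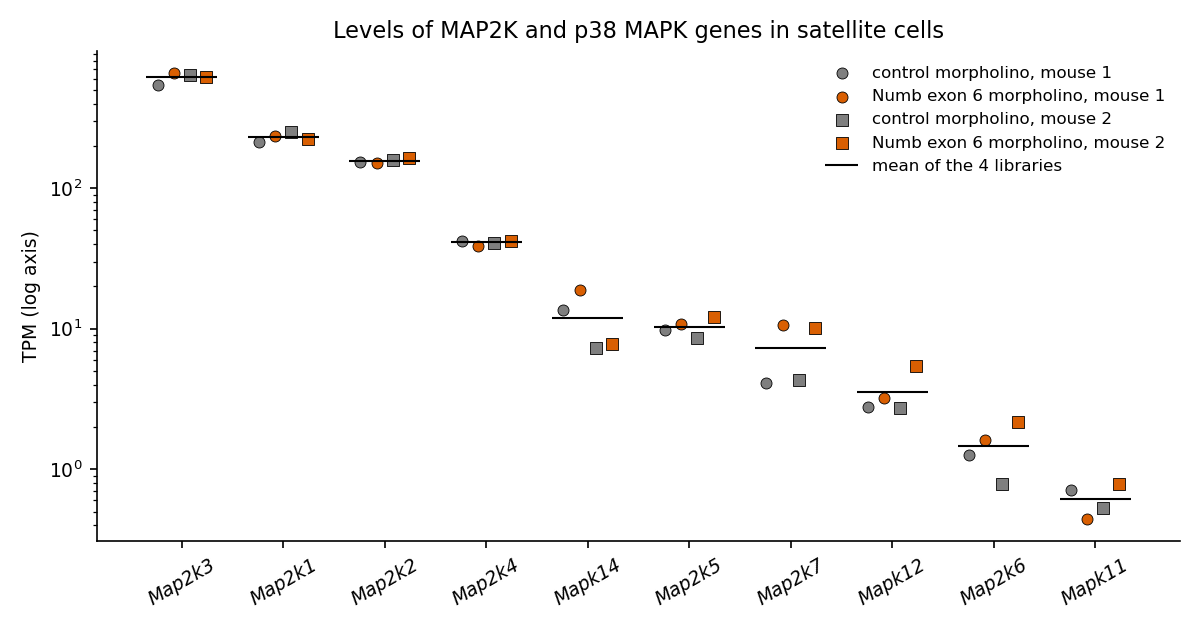
TPM (log axis) of the 10 genes in each of the 4 libraries, in order of the mean; grey points are control and orange points Numb exon 6 morpholino libraries, circles are mouse 1 and squares mouse 2, and bars are means. Map2k3 stands near 617 TPM and Mapk11 near 0.617 TPM, and the libraries of Mapk14 part by mouse while those of Map2k7 part by morpholino.

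Within the p38 family Mapk14, or p38 alpha, was the most abundant, at 79.6% and 83.7% of the p38 sum in the libraries of mouse 1 and 69.0% and 55.7% in those of mouse 2. Mapk12, or p38 gamma, which is known for its high level in skeletal muscle, gave 14.3% to 38.7%. Mapk11, or p38 beta, gave 1.99% to 5.58%, from 154 to 339 estimated counts. Mapk13, or p38 delta, is not among the 10 genes and was at most 0.225 TPM in any library. Mapk11 and Mapk12 are neighbours on the minus strand of chromosome 15, 1782 bases apart, and share no annotated exon.

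Between morpholinos most of the MAP2K genes differed little. Values are given in CPM scaled by trimmed means (TMM), first for the control and then for the Numb exon 6 library. Map2k3 stood at 568 and 664 CPM in mouse 1 and at 642 and 615 CPM in mouse 2. Map2k1 stood at 266 and 275 CPM in mouse 1 and at 305 and 261 CPM in mouse 2. Both were slightly higher with the Numb exon 6 morpholino in mouse 1 and lower in mouse 2, and the groups overlapped. Map2k2 stood at 141 and 129.99 CPM, then at 138.4 and 137.9 CPM. Map2k4 stood at 67.7 and 65.5 CPM, then at 65.3 and 69.9 CPM. Across these 4 genes, log2 ratios within a mouse lay between -0.22 and 0.23.

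Map2k5, the activator of ERK5, stood at 11.2 and 12.1 CPM with the control and the Numb exon 6 morpholino in mouse 1, and at 9.18 and 13.4 CPM in mouse 2. Both Numb exon 6 libraries lay above both controls, with log2 ratios of 0.11 and 0.54. Map2k6 stood at 1.40 and 1.72 CPM in mouse 1 and at 0.850 and 2.24 CPM in mouse 2. Its groups did not overlap either, with log2 ratios of 0.30 and 1.39, but these values rest on 260 to 550 estimated counts. Cell type markers, those of satellite cells among them, also differed in level between the morpholino libraries, which is given here as a description. Over all tested genes 28.1% were higher and 27.3% lower in both mice. Of the satellite cell markers 8 of 12 were higher and 1 lower, and of the fibro-adipogenic progenitor markers 7 of 12 and 1. For leukocytes 11 of the 16 stood higher and 2 lower in both mice. Their control sums were 46.9 and 54.4 TPM and their Numb exon 6 sums 57.3 and 152 TPM. S100a8 alone stood at 4.23 TPM in the control and 46.5 TPM in the Numb exon 6 library of mouse 2. No leukocyte marker was at 0 in any library, and 5 were below 1 TPM in all 4. Glial markers summed to 84.3 and 96.8 TPM in the controls against 138 and 162 TPM, with 5 of 10 higher and 1 lower in both mice. Of the erythroid markers 6 of 6, and of the smooth muscle and pericyte markers 7 of 10, were higher in both mice and 0 lower. For endothelium 5 of 12 were higher and 0 lower, and for myofibres 4 of 12 were higher and 3 lower. The part of these cells in the differences of the members was not tested.

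Of the 10 members, 4 were higher in CPM with the Numb exon 6 morpholino in both mice (Map2k5, Map2k6, Map2k7 and Mapk14), against 28.1% of all tested genes, and 1 was lower in both (Map2k2), against 27.3%. The groups did not overlap for 3 members higher with the Numb exon 6 morpholino (Map2k5, Map2k6 and Map2k7), against 17.4% of all genes, and for 1 lower (Map2k2), against 17.1%. Map2k7 alone was over 2-fold higher in both mice, against 3.17% of all genes. In TPM 5 members were higher in both mice (the same 4 and Mapk12), against 32.1% of all genes, and 0 lower, against 23%. The members were picked with this contrast known, so these shares are printed side by side and nothing is read from them. The median log2 fold change over the members was 0.20, and over all tested genes 0.005. The edgeR quasi-likelihood test called 0% of the 27551 genes at an adjusted p under 0.05.

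**Figure D2:**
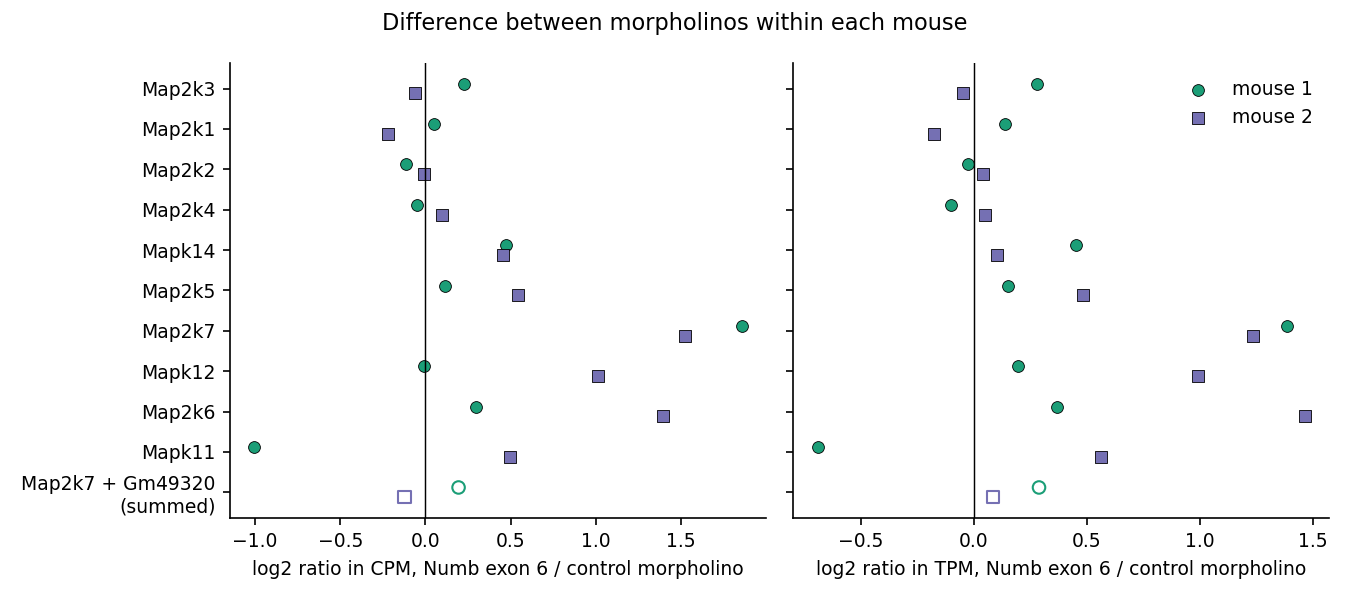
Log2 ratio of the Numb exon 6 to the control morpholino within mouse 1 (circles) and mouse 2 (squares), in TMM-scaled CPM on the left and TPM on the right. Filled points are the 10 genes and open points are Map2k7 summed with Gm49320: the ratios of Map2k7 are 1.85 and 1.52 in CPM, and those of the sum are 0.19 and -0.12.

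Map2k7, the JNK activator, showed the widest difference of the members. In mouse 1 it stood at 3.33 CPM in the control library and 12.1 CPM in the Numb exon 6 library, and in mouse 2 at 3.67 and 10.5 CPM. Both Numb exon 6 libraries lay far above both controls, by 3.62-fold and 2.87-fold in CPM within the mice. In TPM it stood at 4.09 and 10.7 in mouse 1 and at 4.29 and 10.1 in mouse 2, with log2 ratios of 1.38 and 1.23. The mean length of the transcripts assigned to the gene, the count divided by TPM and by a constant of the library, was 1512 and 2212 bases in mouse 1 and 1644 and 2057 bases in mouse 2. This length was over 1.2-fold longer in both mice, a limit set after the values were seen, as for 0.375% of the 13597 genes with lengths. Transcripts of Map2k7 annotated as coding range from 760 to 3525 bases.

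Map2k7 is the only member whose exons overlap those of another annotated gene. Gm49320 (chr8:4238865-4251423, plus strand) is a read-through model that starts inside the leading exon of Map2k7 (chr8:4238740-4247897, plus strand) and ends with the gene Tgfbr3l. Of the 16 exons of Gm49320, 11 are identical to exons of the transcript Map2k7-201, which has 13, and 1 more overlaps in part. The genes share 1349 exonic bases, 46.9% of the exonic bases of Gm49320. Map2k7-201 and Gm49320-201 part after exon 12, and the junction shown is where their sequences first differ past the shared exons; the later exons differ too. Another annotated transcript of Map2k7 is not spliced there, and its exon runs on. Exon 12 is in lower case and the start of exon 13 in capitals, 5′ to 3′.
Map2k7-201: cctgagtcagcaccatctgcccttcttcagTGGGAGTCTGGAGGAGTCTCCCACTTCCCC
Gm49320-201: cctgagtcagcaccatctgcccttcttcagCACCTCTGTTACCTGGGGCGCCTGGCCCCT
The shared stretch is chr8:4245796-4245825, and the capitals are chr8:4247657-4247686 in Map2k7 and chr8:4249205-4249234 in Gm49320. All 60 bases shown are coding in both transcripts.

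The deposited values of Gm49320 ran opposite to those of Map2k7. Gm49320 had 2524 estimated counts in the control of mouse 1 and 2392 in that of mouse 2, while the Numb exon 6 libraries had 9 and 0. Map2k7 had 1162 and 1122 counts in the controls, and its counts in the Numb exon 6 libraries were 3859 and 2467. Of the counts given to either gene, Map2k7 therefore received 31.5% and 31.9% in the controls, and in the Numb exon 6 libraries 99.8% and 100%. Summed over both genes, the control and Numb exon 6 levels were 10.6 and 12.1 CPM in mouse 1, and 11.5 and 10.5 CPM in mouse 2. In CPM the groups then overlapped, with log2 ratios of 0.19 and -0.12 in place of 1.85 and 1.52. In TPM the sums were 8.75 and 10.7 in mouse 1 and 9.51 and 10.1 in mouse 2, with log2 ratios of 0.29 and 0.09, and here both Numb exon 6 libraries still lay above both controls. The summed level in CPM was 1.14-fold that of the control in mouse 1 and 0.918-fold in mouse 2. Tgfbr3l, whose exons are shared with the end of Gm49320, stood at 0.971 and 1.23 CPM in mouse 1 and at 0.657 and 0.611 CPM in mouse 2. With it added, the log2 ratios of the sum were 0.21 and -0.12. Whether transcripts with exon 13 of Gm49320 were present in the controls cannot be read from values per gene.

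**Figure D3:**
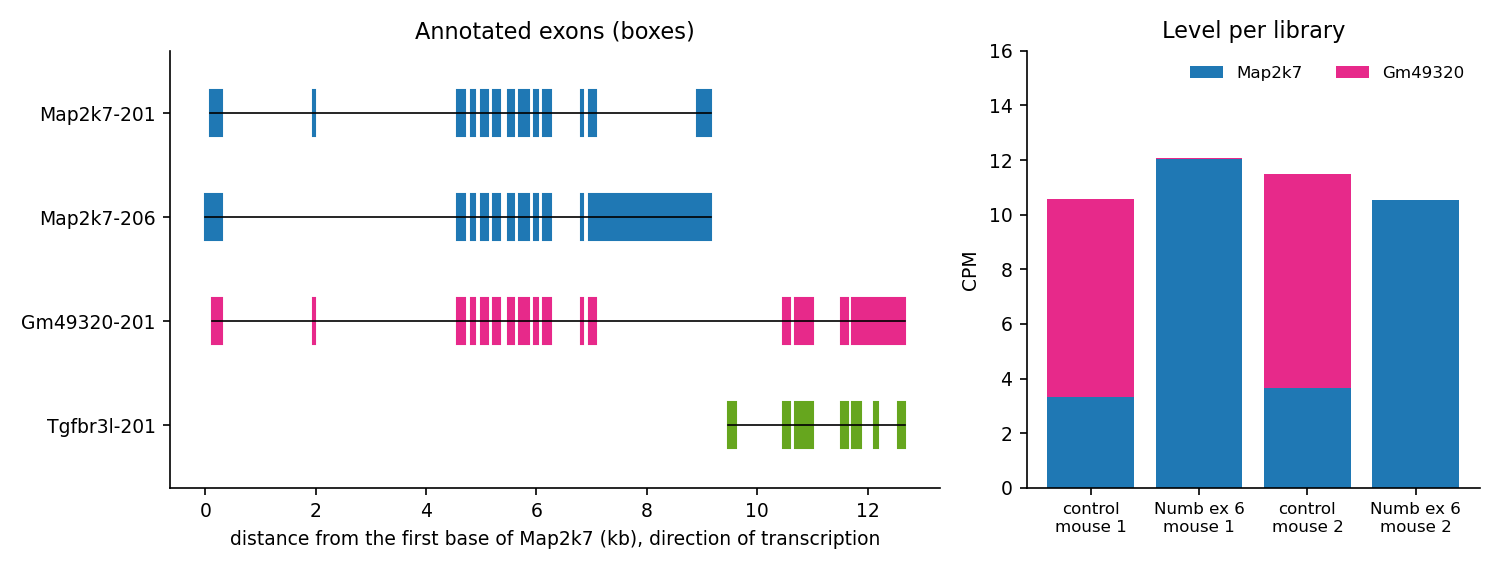
Left, annotated exons (boxes) of Map2k7, Gm49320 and Tgfbr3l models against the distance in kb from the first base of Map2k7. Right, CPM of Map2k7 (blue) with Gm49320 stacked on it (pink) in each library: the stacks reach 10.6, 12.1, 11.5 and 10.5 CPM, while the blue part is 3.33 and 3.67 in the controls, against 12.1 and 10.5 with the Numb exon 6 morpholino.

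Mapk14, the leading p38 gene (chr17:28691329-28748406, plus strand), differed between the mice and less between morpholinos. Its control and Numb exon 6 libraries had 21.1 and 29.2 CPM in mouse 1, and 7.62 and 10.5 CPM in mouse 2. Both libraries of mouse 1 lay above both of mouse 2, so the morpholino groups overlapped. The log2 ratio of the morpholinos was 0.47 in mouse 1 and 0.46 in mouse 2. In TPM it stood at 13.7 and 18.7 in mouse 1 and at 7.25 and 7.79 in mouse 2, with log2 ratios of 0.45 and 0.10.

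The mice were compared as 1 animal against 1, so that differences between animals in general cannot be read from them. The fitted log2 fold change of Mapk14 from mouse 1 to mouse 2 was -1.48, and over the alternative fits it ran from -1.72 to -0.997. It is given without a p, since the level of the gene in each library was known when it was chosen. Over all 27551 genes edgeR called 0.0254% between the mice. Both libraries of mouse 2 lay below both of mouse 1 for 1 of the 10 (Mapk14), against 18.8% of all genes, and over 2-fold below for either morpholino for the same 1, against 2.37%. Of 8469 genes with a mean log2 CPM of 3 or more, 0.0708% were over 2-fold lower in mouse 2 with either morpholino, and Mapk14 was one of the 6. Because Mapk14 was chosen with these levels known, nothing is read from these shares.

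The transcripts assigned to Mapk14 were also shorter on average in mouse 2. Their mean length was 2866 bases with the control and 3061 with the Numb exon 6 morpholino in mouse 1, and 2018 and 2639 bases in mouse 2. It was over 1.1-fold shorter in mouse 2 with either morpholino, as for 1.42% of genes with lengths. This share too is only a description, since the ratio of counts to TPM was known when the gene was chosen. Annotated transcripts of Mapk14 range from 223 to 3592 bases, and those annotated as coding from 866 to 3592. Over all 13597 genes with lengths limma called 0% between the mice (743 at an unadjusted p under 0.05). A count grows with transcript length, and the difference between mice was smaller in TPM than in CPM, with log2 values of -0.91 against -1.47 in the controls and -1.26 against -1.48 in the Numb exon 6 libraries. Gm4356 (ENSMUSG00000117145.1, named AC170998.1 in GENCODE vM21), a gene on the same strand that lies between exons of Mapk14, had 382 to 520 counts and shares no exon with it. Summed with Gm4356, Mapk14 had 22.2 and 30.5 CPM in mouse 1, and 9.32 and 12.1 CPM in mouse 2. The 6 erythroid markers, none at 0, summed to 539 and 929 TPM in mouse 1 and to 1533 and 1736 TPM in mouse 2. Genes known to collect reads of ribosomal RNA made up 8.95% and 6.53% of the total counts in mouse 1 and 5.00% and 5.06% in mouse 2. The part of either in the difference of Mapk14 was not tested.

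**Figure D4:**
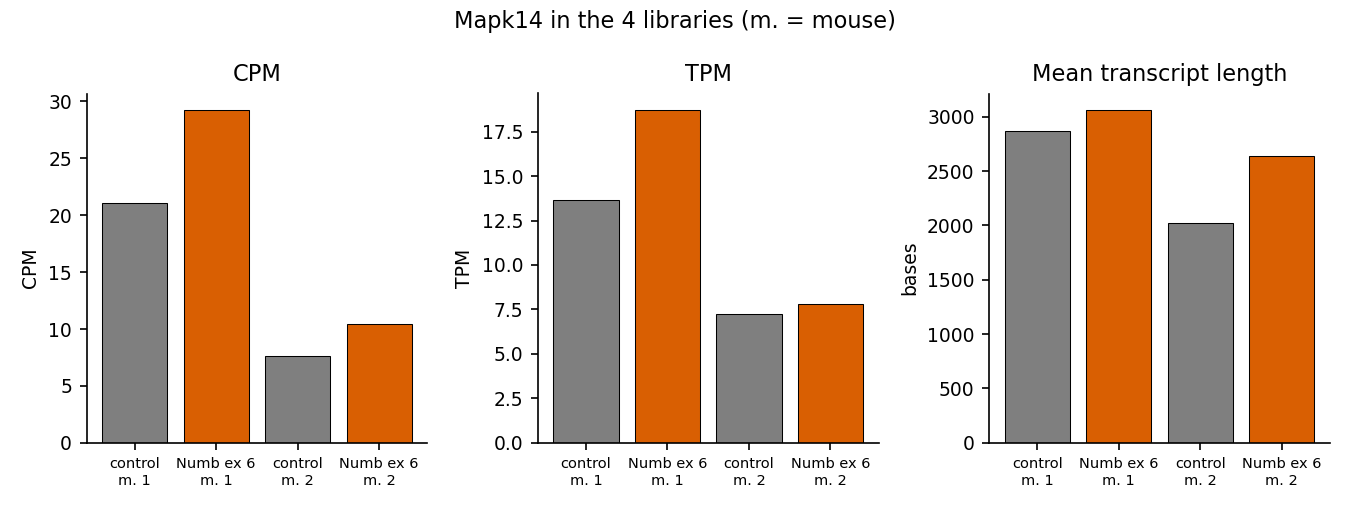
CPM, TPM and mean transcript length in bases of Mapk14 in each library, with control libraries in grey and Numb exon 6 libraries in orange; each bar is 1 library. The bars of mouse 1 (21.1 and 29.2 CPM) stand above those of mouse 2 (7.62 and 10.5 CPM) in each of the 3 panels.

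The other p38 genes did not show the pattern of Mapk14. The control and Numb exon 6 libraries of Mapk12 had 2.64 and 2.62 CPM in mouse 1, and 2.05 and 4.14 CPM in mouse 2. The Numb exon 6 library of mouse 2 stood apart from the other three. Mapk11 stood at 0.971 and 0.481 CPM in mouse 1 and at 0.706 and 1.00 CPM in mouse 2, lower with the Numb exon 6 morpholino in one mouse and higher in the other. Their fitted log2 fold changes between the mice were both 0.23, but each joined opposite signs. With the control and the Numb exon 6 morpholino the log2 CPM differences were -0.36 and 0.66 for Mapk12, and -0.46 and 1.05 for Mapk11. The 7 MAP2K genes had fitted log2 fold changes between the mice from -0.11 for Map2k7 to 0.06 for Map2k1. That of Map2k6, -0.01, joined differences of -0.71 with the control and 0.38 with the Numb exon 6 morpholino.

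For the remaining MAP2Ks the mean transcript length varied less. It stayed within 2305 to 2331 bases for Map2k1, 1660 to 1690 for Map2k2, 1915 to 1972 for Map2k3 and 2026 to 2073 for Map2k6. Map2k4 had 3001 and 3285 bases with the control and the Numb exon 6 morpholino in mouse 1, and 3057 and 3241 in mouse 2. Map2k5 had 2119 and 2177 bases in mouse 1, and 2043 and 2178 in mouse 2.

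The rest of the pathway was followed in 6 lists of 104 genes, of which 101 were tested. The lists were chosen with earlier results of these data known. Their counts, shares and p are therefore a description, and nothing is read from them. For the morpholinos edgeR, DESeq2 and limma-voom each called 0 of them, and the unadjusted edgeR p was under 0.05 for 6, against 4.16% of all genes. Adding the mouse as a block left 0 edgeR calls and brought 13 to an unadjusted p under 0.05, against 1677 of all 27551 genes. In both mice 33 of the 101 genes were higher and 23 lower, against 28.1% and 27.3% of all tested genes. The median log2 fold change of the 101 was 0.02. The same shares of all genes apply to the counts of each list below. Between the mice edgeR and limma-voom each called 0, and the unadjusted edgeR p was under 0.05 for 15, against 8.31% of all genes. DESeq2 called 4 (Zfp36, Gadd45b, Mapk4 and Ksr2), against 504 of the 45277 genes it was run on. On counts simulated for the morpholinos without a mouse effect, DESeq2 made more false calls than edgeR or limma-voom. Its calls are therefore read with caution. The comparison of the mice was not simulated.

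Upstream of the MAP2Ks stand the MAP3Ks and their adaptors. Of the 31 tested, 13 had higher and 5 lower levels in both mice, against 28.1% and 27.3% of all genes. Their median was 0.02 (log2). The most abundant were Gadd45a and Gadd45b, stress-induced activators of Map3k4, at 642 to 852 and 274 to 500 TPM. Map3k1, which acts on Map2k4 and Map2k7, stood at 9.01 and 14.1 TPM in mouse 1 and at 10.8 and 13.9 TPM in mouse 2. Its log2 fold change was 0.51 ± 0.15 (SE), with an edgeR adjusted p of 0.999. Map3k7 (TAK1), upstream of p38 and JNK, had a log2 fold change of -0.30 ± 0.15 and Map3k5 (ASK1) of -0.02 ± 0.20 (SE).

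Of the 10 other MAP kinases tested, 2 were higher and 2 lower in both mice. Mapk6, an atypical MAP kinase, ranged from 24.8 to 31.4 TPM. Among 13 scaffolds, 3 were higher and 3 lower in both mice; Iqgap1 had a log2 fold change of -0.20 ± 0.11 and Pea15a, which binds ERK in the cytoplasm, of 0.11 ± 0.12 (SE). The kinases that MAP kinases activate had 6 of 11 members higher and 1 lower in both animals, against 28.1% and 27.3% of all genes. Their median was 0.17 (log2). Mapkapk2, the main effector kinase of Mapk14, stood at 98.7 and 84.7 CPM in mouse 1 and at 106.2 and 109.4 CPM in mouse 2. Its log2 fold change was -0.08 ± 0.16 between morpholinos and 0.23 ± 0.11 between mice (SE; edgeR adjusted p = 0.999 and 0.663). Mapkapk3 had a log2 fold change of 0.07 ± 0.13 and Mknk2, which phosphorylates the cap-binding factor eIF4E, of 0.18 ± 0.28 (SE).

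Of 16 phosphatases, 4 were higher and 4 lower in both mice. Dusp1, which inactivates p38 and JNK, stood at 518 to 579 TPM and had a log2 fold change of 0.03 ± 0.10 (SE). Dusp10, another phosphatase of p38 and JNK, had a log2 fold change in counts of -0.18 ± 0.18 (SE). With the control library first, it stood at 234 and 208 CPM in mouse 1 and at 185 and 163 CPM in mouse 2. In TPM it was also lower in mouse 1, at 159 and 152 TPM. In mouse 2 it was higher in TPM, at 130 and 189 TPM, so the scales went opposite ways there. Of 20 substrates and partners of p38, 5 were higher and 8 lower in both mice. Hspb1, the small heat shock protein phosphorylated downstream of p38, ranged from 1956 to 2953 TPM and had a log2 fold change of 0.35 ± 0.13 (SE; edgeR adjusted p = 0.999). Carm1, an arginine methyltransferase phosphorylated by p38 gamma in satellite cells, stood at 17.5 and 12.99 TPM in mouse 1 and at 16.7 and 12.5 TPM in mouse 2. Its log2 fold change was -0.58 ± 0.16 (SE; edgeR adjusted p = 0.999), and its exons overlap those of Yipf2 on the opposite strand. Creb1 is a transcription factor activated by kinases downstream of p38 and ERK. Its log2 fold change in counts was 1.65 ± 0.63 (SE, edgeR adjusted p = 0.999), with log2 CPM ratios of 2.57 in mouse 1 but 0.16 in mouse 2. Creb1 differed less in TPM in mouse 1, at 13.2 and 27.5 TPM against 12.5 and 74.1 CPM. In mouse 2 it stood at 9.82 and 12.7 TPM. Tcf3, an E protein partner of Myod1, had -0.24 ± 0.18 (SE).

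Among pathway genes with a mean log2 CPM of 3 or more, the smallest p between the mice belonged to Zfp36, Gadd45b, Ksr1 and Mknk2, all higher in mouse 2. Zfp36, an RNA-binding protein that p38 signalling inactivates, stood at 240 and 299.9 TPM in mouse 1 and at 482 and 481 TPM in mouse 2. Its log2 fold change was 0.82 ± 0.11 (SE, n = 2 libraries per mouse), with an edgeR adjusted p of 0.326. Gadd45b had 0.69 ± 0.10 (SE; edgeR adjusted p = 0.355). Ksr1, a scaffold of the ERK cascade, and Mknk2 had 0.51 ± 0.12 and 0.56 ± 0.15 (SE), neither past the threshold in edgeR. The mean transcript length of no pathway gene passed in either comparison in limma; those with the smallest p were Carm1, Map3k7, Map3k5 and Mapkapk2 for the morpholinos, and Mapkapk3, Map3k12, Tcf3 and Mapk6 for the mice.

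**Figure D5:**
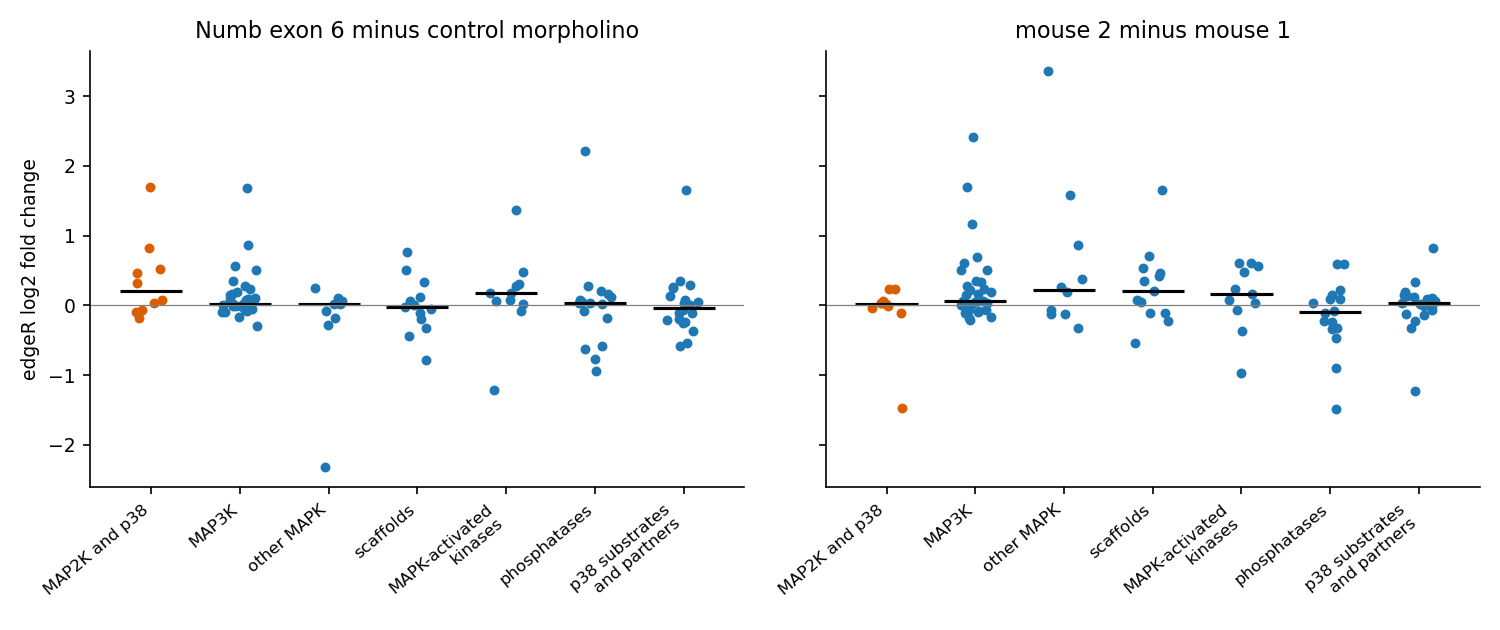
EdgeR log2 fold change of each tested gene in the MAP2K and p38 set (orange) and in the 6 pathway lists (blue), for Numb exon 6 minus control morpholino on the left and mouse 2 minus mouse 1 on the right; points are genes and bars are medians. In orange, Map2k7 stands highest on the left at 1.69 and Mapk14 lowest on the right at -1.48. Summed with Gm49320, which is not drawn, Map2k7 had a mean log2 CPM ratio of 0.04.

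Profiles over the 4 libraries were last compared between Map2k3, Mapk14 and the 85 pathway genes at a mean of at least 1 TPM. The likeness was the root mean square difference of log2 TPM centred on each gene's mean. Among the 3 nearest to Map2k3 were Pea15a (0.03) and Dusp1 (0.05). Nearest to Mapk14 were Creb1 (0.28), Dusp7 (0.36) and Mapkapk3 (0.41). With 4 libraries these are descriptions only.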

How the data were processed

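Libraries were built by SMART-Seq2 from 5 ng RNA each, per the labels' protocols; the method does not mark strand. HISAT2 2.1.0, StringTie 1.3.6 and GRCm38 are named in the submitters' processing notes. How coverage became counts is not stated in the sources used here, nor is the annotation release. The authors deposited estimated counts, as whole numbers, and TPM. In genes with 1 annotated transcript and over 500 counts, the count divided by length and TPM was 1 constant in each library (within 1%, for 99.96% of genes or more), and this constant gave mean transcript lengths. Annotation was GENCODE vM21.

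The members and gene lists were chosen with earlier results of these data known, so no test of a member is given. Tests of genes in the lists are given as a description only. Main tests were edgeR 4.0.16 (R 4.3.3; quasi-likelihood, robust, TMM, default filter, Benjamini-Hochberg at 0.05) on all 4 libraries, and limma 3.58.1 on log2(count/TPM), centred by library, at TPM of at least 1 and 100 counts in each. The SE derives from the quasi-likelihood statistic. For the morpholinos it is from the fit without a mouse term, which leaves out the pairing by animal. Blocking on the mouse gave an SE of 0.12 in place of 0.28 for Mknk2 and 0.07 in place of 0.13 for Hspb1. For Creb1 it gave 0.65 in place of 0.63. Log2 ratios within a mouse use CPM with a prior count of 2. DESeq2 1.42.0, limma-voom, other filters and scalings, log2(TPM + 1) and log2(TPM + 0.1) were alternatives. So were counts divided by 4, a mouse term and removal of each library. The tests were tried on data simulated for the morpholinos without a mouse effect, where DESeq2 made more false calls than the others. Same-numbered libraries come from the same animal, which pairs them (correlation of deviations 0.40 over the 8469 genes from a mean log2 CPM of 3 upward and 0.06 over all 27551). Named outside the members were the 2 most abundant genes of each pathway list and of the satellite cell and leukocyte markers, the 4 with the smallest p per comparison from a mean log2 CPM of 3 upward, and the 3 nearest in profile to Map2k3 and Mapk14; some genes that this rule names are not reported here. Gm49320, Tgfbr3l, Gm4356, Mapk13, Numb and Pax7 were named outside this rule, the first 3 after their values were seen. The replicates are libraries of 2 animals, so p measures only the spread between these samples.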

Additional observations from a re-analysis of the deposited data

Results flagged for a closer look

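For 5 of the 10 genes the morpholinos differed in opposite directions in CPM in the 2 mice. In CPM 28.1% of all tested genes were higher and 27.3% lower in both mice, and nothing is read from the count of 5. In TPM Mapk12 was higher in both mice, with log2 ratios of 0.19 and 0.99. Each mouse gave 1 library per morpholino, and the difference between mice was not tested. The log2 CPM ratio of mouse 2 minus that of mouse 1 was -0.29 for Map2k3, -0.27 for Map2k1, 0.15 for Map2k4, 1.02 for Mapk12 and 1.502 for Mapk11. Mapk12 had 626 to 968 estimated counts in a library and Mapk11 154 to 339.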

How the results depend on the processing

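Over all genes, the Numb exon 6 comparison called 0 in edgeR; DESeq2 called 81 and edgeR 10 without a filter and 1 at a CPM of at least 5 in 2 libraries, and leaving out 1 library gave 0 to 1 (1 without the control of mouse 1 or the Numb exon 6 library of mouse 2). Adding a replicate block for the mouse, edgeR called 0 (1677 at an unadjusted p under 0.05) and DESeq2 150. Between the mice edgeR called 7, against 504 in DESeq2, 119 without a filter, 43 at a CPM of at least 5 in 2 libraries, 4 on log2(TPM + 1), 1 with the morpholino as a term, and 1 to 28 when 1 library was left out (1 without either library of mouse 1, 19 without the control of mouse 2 and 28 without its Numb exon 6 library). Transcript lengths gave 0 calls between the mice in limma (743 at an unadjusted p under 0.05) and 4 without centring. Between morpholinos they gave 0 calls in each setting with all 4 libraries. The limma p was under 0.05 unadjusted for 798 genes in the main setting, 61 without centring and 1157 with a replicate block. The cause of these differences was not tested. The mean log2 ratio of Map2k7 moved from 1.69 to 0.04 once summed with Gm49320, an alternative added after the data were seen, and to 1.13 on log2(TPM + 1). That of Mapk14 moved from 0.46 to 0.26 on that scale. The DESeq2 counts are to be read with its larger number of false calls on counts simulated for the morpholinos without a mouse effect. The comparison of the mice was not simulated. Leaving out 1 library leaves an arm with 1 sample, assumed to vary like the others.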
